A study of Pimephales promelas and Coturnix japonica and Xenopus laevis with 724 samples.

Results

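The 100 identifiers described here were higher with benzo[a]pyrene than in controls in the embryos of a fish, the fathead minnow, and of a frog, the African clawed frog, and were not raised to the same limit by lead in embryos of the same species. They were selected on those values. Each library was scaled to CPM (counts per 1e+06 counts of that library), and L is log2 of the mean CPM + 1 at the level labelled HIGH over the mean CPM + 1 in the controls. An identifier was eligible if it occurred in the 4 tables concerned, had a HIGH mean of at least 5 CPM with benzo[a]pyrene in both species, and had an L under 0.4 with lead in both. Of 42403 identifiers in the series, 16250 occurred in the 4 tables, 8680 of these had the benzo[a]pyrene level and 8149 of these lay under the lead limit. The 100 with the largest smaller L of the pair of benzo[a]pyrene tables were taken, and a rank below is the place in that order.

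Benzo[a]pyrene is a polycyclic aromatic hydrocarbon formed in combustion. It binds the aryl hydrocarbon receptor, a transcription factor that then enters the nucleus and, with its partner ARNT, switches on genes such as those of the CYP1 enzymes, which oxidise the compound, in part to products that bind DNA. Induction of CYP1A in fish embryos and in liver is a widely used sign of exposure to such hydrocarbons. Lead is a toxic metal and not a ligand of that receptor; it is known for binding to proteins in the place of calcium and zinc and for inhibiting enzymes of haem synthesis. The identifiers carry the prefix s2f, the files pair none of them with a gene name, and 0 of 42403 matched a reference table of 64593 genes. Which of the 100 belong to the receptor's target genes was therefore not examined, no gene role is given, and the labelled tissues were not checked against marker genes.

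The series holds RNA sequencing of 6 vertebrate species exposed to some of 8 chemicals, with 724 libraries in 49 tables of 1 species, life stage and chemical. All controls carry the label dmso, a solvent, in the lead tables as well. The 4 tables behind the selection hold embryos with 5 libraries each of CTRL, MED and HIGH, except that the clawed frog lead table has 6 controls, 2 of them numbered 3 and 3.1. In both frog species the titles of the HIGH benzo[a]pyrene libraries begin with M and those of the MED libraries with L, so the level label and the title differ there. The titles of the minnow embryo hexabromocyclododecane libraries differ from their labels in the same way, and the level label was used throughout. Benzo[a]pyrene was also given in 6 tables that took no part in the selection. Rainbow trout embryos had 7 controls and 4 libraries at each of the levels 1, 3, 9, 27 and 81, whose labels state no full unit. The replicate names of 4 of these controls begin with S and those of the others with C, and all 7 were fitted together. Northern leopard frog embryos, early-life double-crested cormorant liver, early-life Japanese quail liver, adult Japanese quail liver and adult fathead minnow liver each had 5 libraries of CTRL, MED and HIGH. Adult quail liver with lead, also 5 libraries a group, was the lead table left for testing. The sources used here state no strain, age, exposure time or concentration.

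Total counts ran from 4066220 to 69838406 per library over the series and from 6597184 to 40874842 over the 178 libraries, 58 of them controls, of the benzo[a]pyrene and lead tables with controls. No label states that the replicates of a group are separate animals, so a p-value below covers only how much these libraries vary, and that variation may be technical. Some single libraries touch the results. Minnow HIGH benzo[a]pyrene replicate A had the highest HIGH value of 52 of the 100 identifiers, and without it the same rule kept 79 of them; the first one lost was rank 34. Clawed frog MED benzo[a]pyrene replicate 5 was the lowest MED library for 76 of the 100. Cormorant control replicate 2 lay below the other controls of its table, as given with that table.

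With benzo[a]pyrene the values that chose the 100 ran over a wide range. L at HIGH was 0.43 to 2.99 in minnow embryos, with a median of 0.77, against a median of -0.07 over the 8149 eligible identifiers. In clawed frog embryos it was 0.43 to 7.07 with a median of 0.69, against 0.03. It was at least 1 for 38 identifiers in the minnow and for 27 in the clawed frog. The smaller L of the pair was 0.4314 at rank 99 and 0.431 at rank 100, the last taken, and 0.4276 at rank 101 and 0.4258 at rank 102, the first left out, so the end of the list marks no step in the values. These are descriptions of the selection and were not tested.

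**Figure D1:**
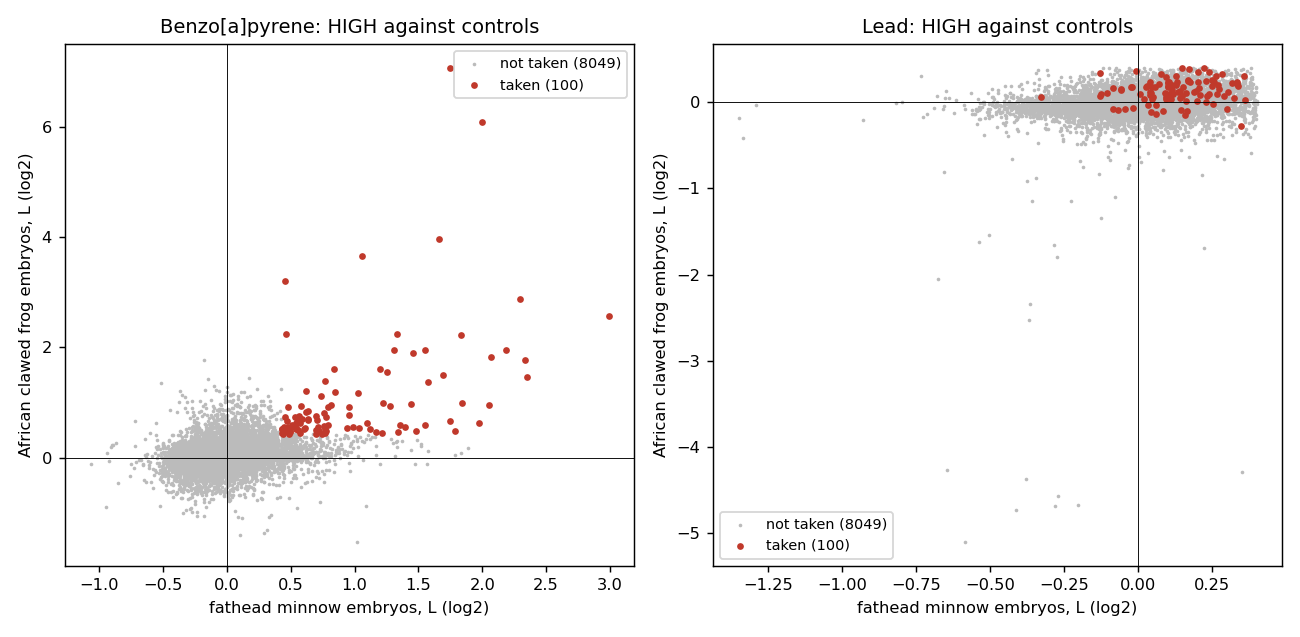
L (log2) of each eligible identifier in fathead minnow embryos on the x axis and African clawed frog embryos on the y axis, for benzo[a]pyrene on the left and lead on the right, each HIGH against controls; red points are the 100 taken and grey points the 8049 not taken. With benzo[a]pyrene the red points fill the upper right corner by selection, and with lead they lie between -0.33 and 0.39 on both axes, most of them above 0.

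The separation of single libraries differed between the species. Every HIGH library lay above every control for 65 of the 100 in the minnow and for 93 in the clawed frog. Over the 8680 identifiers with the benzo[a]pyrene level the same held for 3.95% in the minnow and 14% in the clawed frog. Since the rule used these libraries, nothing is read from those shares. Together the 100 took 0.315% to 0.349% of all counts in the minnow controls and 0.646% to 0.951% in the HIGH libraries. The clawed frog libraries gave them 0.340% to 0.407% in controls and 0.860% to 1.11% at HIGH. The samples are whole embryos or pieces of liver, so more cells of a type that holds an RNA and more of that RNA per cell cannot be told apart in any of these values.

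The MED level, which the rule did not read but which shares its controls with HIGH, was ordered differently in the minnow and the clawed frog. In the minnow the median L at MED was 0.79, against 0.03 over the eligible identifiers, and 97 of the 100 lay above 0. There 66 had means in the order control, MED, HIGH, and 31 had a higher mean at MED than at HIGH. In the clawed frog the median L at MED was 0.39, against 0.02 over the eligible identifiers. There 99 lay above 0, and the same 99 had the order control, MED, HIGH. Measured against its own L at HIGH, the median identifier stood at 86.5% at MED in the minnow and at 62.4% in the clawed frog. No concentration is stated, and in the clawed frog the titles of both levels differ from their labels. MED and HIGH may therefore not stand for like levels in both species. The clawed frog MED means include the low replicate 5, and no median without it is given. The rule chose the 100 on these HIGH and control means, so HIGH lay above control by selection. No order count over the eligible identifiers is given, and the difference between the species was not tested. The 100 took 0.460% of the counts in the lowest clawed frog MED library, replicate 5, against a median of 0.771% over that group. Without that library the other 4 MED libraries lay above every control for 69 of the 100, and with it all 5 did for 41. No share over all identifiers is given for MED, and the rule used the same controls. Nothing is therefore read from the 69 and the 41.

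The first ranks show how the members differ among themselves. Rank 1 had 1.33, 1.34, 2.58, 3.04 and 4 CPM in the minnow controls and 20, 22.1, 25.8, 31.8 and 32.6 CPM at HIGH. In the clawed frog it had 6.74, 7.98, 8.38, 10.3 and 11 CPM in controls, 13.5, 43.6, 44.5, 45.5 and 45.6 at MED, and 46.1, 53.9, 56.8, 63.6 and 67.1 at HIGH. No control overlapped an exposed library, and the low MED value was replicate 5. Rank 2 had 20.6, 20.6, 24.1, 25.4 and 27.1 CPM in the minnow controls, 124.7, 127, 130, 166 and 177 at MED and 70.5, 80.5, 112, 145 and 191 at HIGH. The MED libraries of the minnow lay within the HIGH range for this identifier. In the clawed frog its controls held 7.2 to 8.57 CPM and its HIGH libraries 44.2 to 93 CPM.

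s2f_0000004012, at rank 3, had large values in both species. Its minnow controls held 49.7, 58.7, 64.7, 68.9 and 84.0 CPM, its MED libraries 213.2 to 338 CPM and its HIGH libraries 139, 229.3, 274, 336 and 340 CPM. In clawed frog embryos it held 7.40, 7.74, 9.58, 9.67 and 11.2 CPM in controls and 281, 292, 831, 890 and 1137 CPM at HIGH. The clawed frog MED libraries lay between, at 93.5 to 211 CPM for 4 of them and 13.5 CPM for replicate 5. With lead it held 56.9 to 68.3 CPM at HIGH against 60.6 to 75.7 CPM in controls in the minnow and 1.94 to 5.06 CPM against 1.98 to 4.40 CPM in the clawed frog; both ranges overlap.

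s2f_0000671008, at rank 4, held 4.96 to 7.80 CPM in the minnow controls and 22.4 to 41.0 CPM at HIGH. In the clawed frog it held 11.1 to 17.0 CPM in controls and 41.3 to 71.8 CPM at HIGH. With lead the HIGH libraries held 5.58 to 9.39 CPM in the minnow and 17.1 to 22.0 CPM in the clawed frog, against 3.55 to 11.05 and 15.5 to 19.6 CPM in controls, and both ranges overlap. Rank 5 held 57 to 82.8 CPM in the minnow controls and 96.3, 212.7, 271, 325 and 329 CPM at HIGH, and 174 to 212.8 CPM in the clawed frog controls and 758 to 1052 CPM at HIGH.

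Rank 8 was close to 0 in clawed frog controls. Its 5 control libraries held 0, 0.221, 0.238, 0.269 and 0.333 CPM, its MED libraries 0.836, 63.7, 81.5, 136 and 166 CPM and its HIGH libraries 104, 127, 143, 201 and 234 CPM. This is the largest L of the list, 7.07, and the 1 CPM added before the logarithm makes it smaller than the plain ratio. The minnow had the same identifier at 13.5 to 21.9 CPM in controls and at 48.3 to 73.9 CPM at HIGH. The control level of this member therefore differed far more between the species' tables than its exposed level; CPM is not per length, and no level is compared between identifiers.

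Not every member was higher in most exposed libraries of both species. Rank 34, s2f_0003506004, held 226.4 to 449 CPM in the minnow controls and 260, 301, 432, 572 and 1194 CPM at HIGH, so the ranges overlap and 1 library decides its mean. Rank 88 held 9.53 to 14.8 CPM in the minnow controls and 9.94, 10.7, 12.5, 15.6 and 42.1 CPM at HIGH, where replicate A is the 42.1. In the clawed frog rank 88 was separated clearly, at 168 to 207 CPM in controls and 1244 to 2226 CPM at HIGH.

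With lead the 100 lay under the limit by selection, and most of them lay slightly above 0. The median L at HIGH lead was 0.13 in the minnow, with 85 of the 100 above 0 and a range of -0.33 to 0.36, against a median of 0.01 over the eligible identifiers. The clawed frog median was 0.14, with 84 above 0 and a range of -0.28 to 0.39, against -0.00. At MED lead, which shares its controls with HIGH, the median was 0.04 in the minnow and 0.13 in the clawed frog, where 4 identifiers had an L of at least 0.4. Every HIGH lead library lay above every control for 9 of the 100 in the minnow, against 8.73% of the 8680 identifiers, and for 6 in the clawed frog, against 2.78%. The 8680 include identifiers that did not pass the lead limit, which the 100 could not hold, so these shares are not like for like. The rule used these values too, so they were not tested. The median over the 100 of log2(CPM + 1) minus its control mean was 0.08 to 0.19 in the minnow HIGH lead libraries and -0.08 to 0.10 in their controls, which overlap. The clawed frog values were 0.08 to 0.20 and -0.06 to 0.04, which do not.

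**Figure D2:**
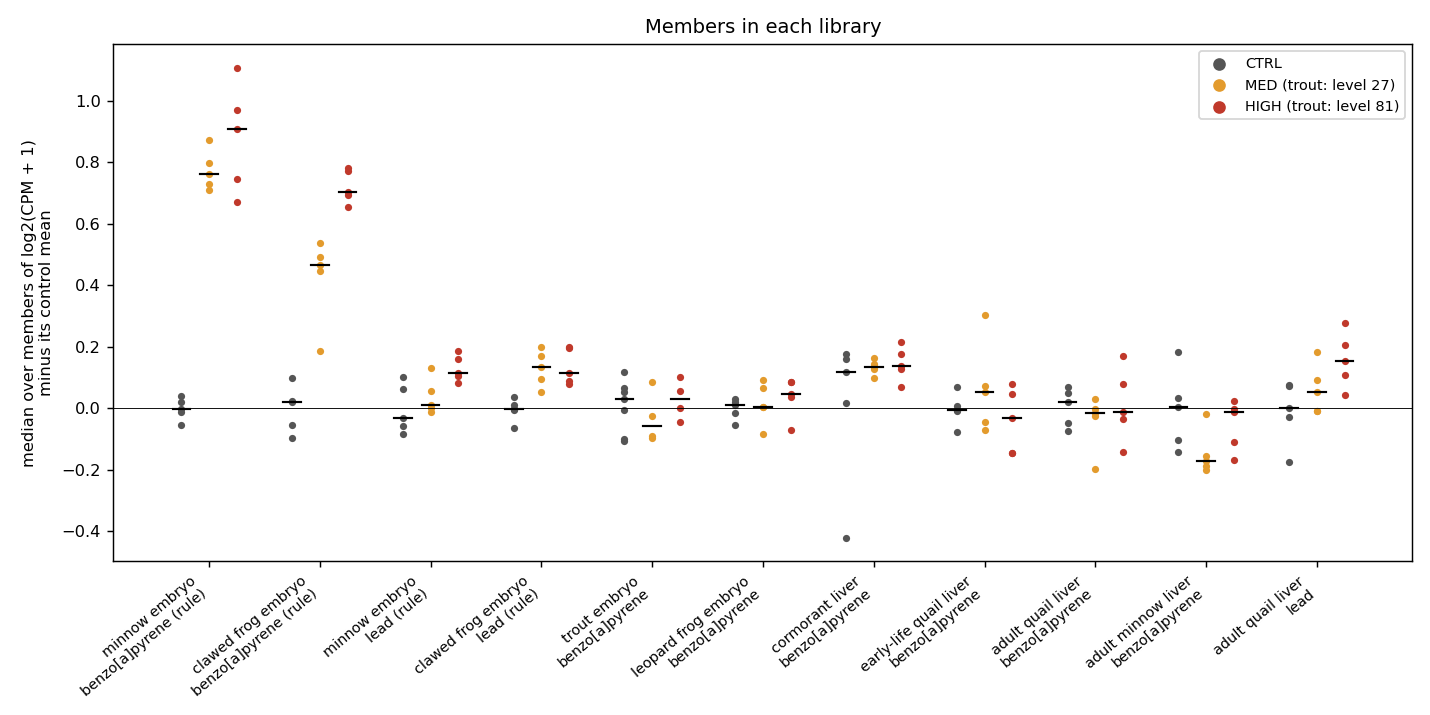
Each point is 1 library and its y value is the median over the members of log2(CPM + 1) minus its mean in the controls of the same table; grey is control, orange MED (trout: level 27), red HIGH (trout: level 81) and black bars are group medians. The benzo[a]pyrene libraries of the selection stand at 0.67 to 1.11 (minnow HIGH) and 0.66 to 0.78 (clawed frog HIGH), and 1 clawed frog MED library stands at 0.19 below the other 4; outside the selection the exposed groups overlap their controls.

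In tables outside the selection the control levels of the 100 were of the same order, except in adult minnow liver. The median over the members of the mean control CPM was 17.7 to 20.6 in the 4 tables of the selection, 21.6 in trout embryos, 17.1 in leopard frog embryos, 25.8 in cormorant liver, 28.9 in early-life quail liver, 18.4 in adult quail liver and 4.05 in adult minnow liver. The minnow liver value comes from the species in which the embryos were selected, with all 100 identifiers present and 12 of them under 1 CPM. Over all identifiers the median there was also low, at 0.791 CPM, against 6.62 CPM in minnow embryos of the benzo[a]pyrene table. It was 2.88 to 5.88 CPM in the trout, leopard frog, cormorant and quail tables. The low level in adult minnow liver was thus not particular to the members. Of the 100 identifiers, 96 occurred in the cormorant liver data, 93 in early-life quail and 92 in adult quail.

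In rainbow trout embryos a few of the members at the top of the list rose with benzo[a]pyrene and most of the list did not pass the test. Of the 99 members that passed the filter on low counts, 6 were higher at level 81 and 0 lower, and 7 were higher at level 27 and 0 lower, at an adjusted p below 0.05 (edgeR quasi-likelihood test, Benjamini-Hochberg over all 16780 identifiers tested). These are 6.06% and 7.07% of the members tested, against 0.209% and 0.346% of all identifiers called higher at the same levels and 0.0656% and 0.0358% called lower. At level 9 there was 1 call and at level 3 there was 1, with backgrounds of 0.0715% and 0.0119% higher and 0% lower. At level 1 there was no call among the members by edgeR or DESeq2, and 0% of all identifiers were called in either direction. At an unadjusted p below 0.05, 4 members were higher and 4 lower at level 1, 4.04% each, against 3.91% and 3.34% of all identifiers. All levels share the same 7 controls.

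The 8 members called at level 27 or 81 were ranks 1, 2, 3, 4, 5, 14, 17 and 24, and 5 of them, ranks 2, 3, 4, 5 and 24, were called at both levels. The largest change was that of s2f_0000004012. Its controls held 25.2, 35.7, 39.4, 40.7, 42.0, 49.1 and 68.1 CPM after scaling by TMM (trimmed mean of M-values, a library scaling), and its 4 libraries at level 1 held 69.6, 77.7, 105 and 178 CPM. At level 3 it held 167, 195, 210 and 497 CPM, and at level 9 it held 272, 577, 826 and 957 CPM. At level 27 it held 826, 872, 1502 and 1573 CPM, and at level 81 it held 696, 909, 945 and 980 CPM. Every exposed library, at level 1 as well, lay above every control. The log2 fold changes were 1.32, 2.64, 3.94, 4.80 and 4.36 from level 1 to level 81, with standard errors of 0.31, 0.30, 0.31, 0.32 and 0.32. The edgeR adjusted p was 0.35 at level 1, 3.453e-05 at level 3, 7.191e-09 at level 9, 5.303e-11 at level 27 and 7.979e-10 at level 81.

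s2f_0000671008 rose from a low level. Its trout controls held 1.42 to 1.998 CPM, with a median of 1.75 CPM. It held 3.68, 4.43, 6.84 and 7.72 CPM at level 9, then 4.29, 6.07, 11.5 and 14.997 CPM at level 27, and 5.24, 5.29, 6.12 and 9.33 CPM at level 81. No library at these 3 levels overlapped the controls. Its log2 fold change was 2.44 ± 0.34 (SE) at level 27, with an edgeR adjusted p of 9.453e-05, and 1.98 ± 0.34 at level 81, with 0.002535. At level 9 it was 1.73 with an edgeR adjusted p of 0.0528, and that value passed the threshold with DESeq2, with no low-count filter, with the 2 groups alone, with the replicate block and without level 9 replicate A.

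The other called members changed less. Rank 2 held 14.9 to 28.8 CPM in the trout controls, 31.3 to 58.9 at level 27 and 32.7 to 49.1 at level 81, with log2 fold changes of 1.09 and 0.95. Rank 5 held 25.5 to 42.7 CPM in controls and 50.9 to 76.0 CPM at level 81, a log2 fold change of 0.79. Rank 24 held 6.66 to 8.88 CPM in controls and 10.5 to 12.9 CPM at level 81, a log2 fold change of 0.64. For ranks 2, 5 and 24 no library at level 81 overlapped the controls. Rank 1, first in the selection, rose in trout by 0.29 ± 0.06 (SE, log2) at level 81, from 22.8 to 25.9 CPM in controls to 28.5 to 31.3 CPM. Ranks 14 and 17 were called at level 27 with log2 fold changes of 0.69 and 0.73. Of the 8, 6 had a larger log2 fold change at level 27 than at level 81; ranks 1 and 5 had a smaller one, and rank 14 was highest at level 9, at 0.70.

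**Figure D3:**
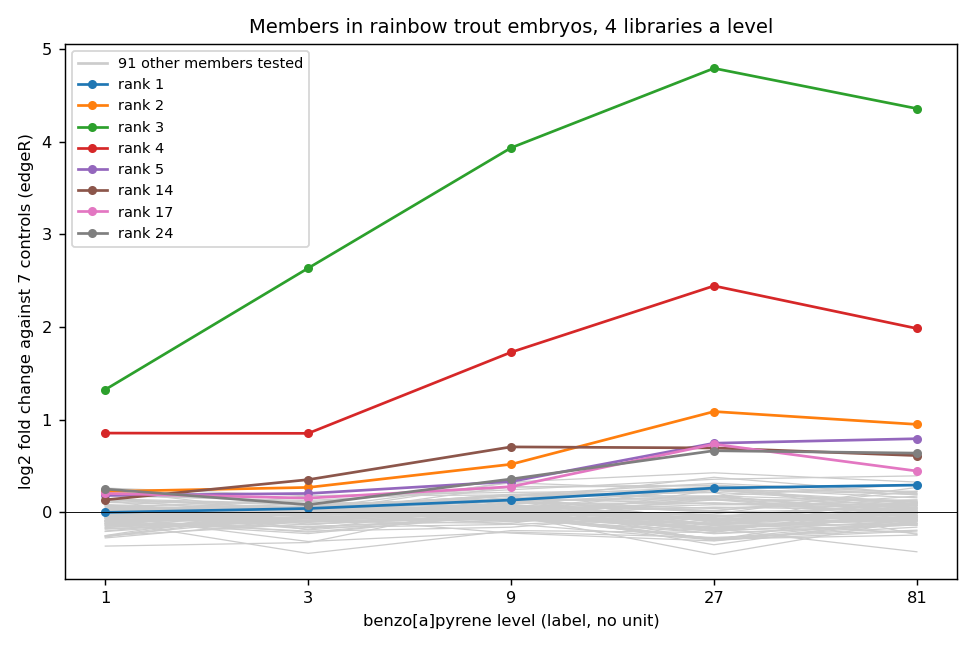
Log2 fold change against the 7 trout controls (edgeR, y axis) of each member tested, by benzo[a]pyrene level as labelled (x axis, evenly spaced); coloured lines are the 8 members called at level 27 or 81 and grey lines the 91 others. Rank 3 climbs from 1.32 at level 1 to 4.80 at level 27 and stands at 4.36 at level 81, rank 4 reaches 2.44, and the grey lines stay close to 0.

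Over the whole list the trout changes were centred near 0. The median log2 fold change of the 99 members at level 81 was 0.02, against 0.00 over all 16780 identifiers, and at level 27 it was -0.04 against -0.00. Over the first 25 ranks, of which 24 were tested, it was 0.25 at level 81 with 23 above 0, and 0.27 at level 27 with 22 above 0. Over ranks 26 to 100, all 75 tested, it was -0.02 with 31 above 0 at level 81 and -0.10 with 23 above 0 at level 27. At an unadjusted p below 0.05, 14 members were higher at level 81, which is 14.1% against 3.2% of all identifiers, and 0 were lower, against 2.45%. At level 27 the members held more than the background share in both directions: 18 were higher, 18.2% against 5.45%, and 12 were lower, 12.1% against 4.27%. At level 9, 12 were higher, 12.1% against 2.18%, and 0 lower, against 2.13%. At level 3, 3 were higher and 1 lower, 3.03% and 1.01% against 2.46% and 2.33%. Every level 81 library lay above every control for 10 members, 10.1% of those tested against 0.799%. Rank 8, with the largest clawed frog value, changed by 0.09 ± 0.13 (SE, log2) at level 81 in trout, where its 7 controls held 26.7 to 41.5 CPM and its exposed libraries 30.7 to 34.1 CPM.

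The trout counts rest in part on single libraries. Without level 81 replicate D 2 members were called at level 81, ranks 2 and 3, and without replicate E 3, ranks 2, 3 and 4. The same 3 were called with the 4 controls whose titles carry an S alone. At level 27 there were 3 calls without replicate E, 4 without replicate D, 4 without control SB and 4 with the S controls alone; ranks 2, 3 and 4 were among them each time. At level 9 the count was 3 without replicate A. Ranks 2 and 3 were called at levels 27 and 81 under every alternative run there.

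Read from the trout side, the selection left out more than it held. Of the 35 identifiers called higher at level 81, 23 occurred in the 4 tables, 18 had the benzo[a]pyrene level, 7 were also under the lead limit and 6 were among the 100. At level 27 the numbers were 58, 33, 21, 13 and 7. Of the 18 at level 81 that had the benzo[a]pyrene level, 11 thus did not pass the lead limit. Over all identifiers with that level, 8149 of 8680 passed it. Whether the 11 would have ranked among the 100 without the limit was not examined.

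In leopard frog embryos 2 of the 98 members tested were higher at HIGH benzo[a]pyrene and 0 lower (edgeR, adjusted p below 0.05). This is 2.04%, against 0.0272% of 14699 identifiers higher and 0.0136% lower. s2f_0000004012 held 0.624, 1.12, 1.22, 1.64 and 2.51 CPM in controls, 3.56, 3.85, 4.29, 4.53 and 4.54 CPM at MED and 4.58, 4.78, 6.74, 8.47 and 9.54 CPM at HIGH. The 3 groups did not overlap, and the log2 fold change at HIGH was 2.22 ± 0.28 (SE) with an edgeR adjusted p of 0.001136. Rank 88, which the rule no longer took without minnow HIGH replicate A, held 179, 193, 193, 196 and 214.7 CPM in controls and 208, 266, 287, 289 and 308 CPM at HIGH. Its log2 fold change was 0.48 ± 0.08 with an edgeR adjusted p of 0.04821, and its call was lost on leaving out any 1 of controls 2, 3, 4 and 5 or of HIGH replicates 2, 3, 4 and 5, which leaves 1 call.

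Rank 5 held 25 to 28.6 CPM in the leopard frog controls and 34.3 to 41.9 CPM at HIGH, with no overlap, a log2 fold change of 0.52 ± 0.10 (SE) and an edgeR adjusted p of 0.0658; DESeq2 called it along with ranks 3, 84 and 88. s2f_0000671008 held 13.0 to 18.5 CPM in controls and 16.1 to 24.2 CPM at HIGH, which overlap. At an unadjusted p below 0.05, 16 members were higher, 16.3% against 1.99% of all identifiers, and 2 lower, 2.04% against 2.35%. For 4 members, or 4.08% against 0.422%, every HIGH library lay above every control. The median log2 fold change was 0.01 against -0.00 over all identifiers; over the first 25 ranks it was 0.23, with 20 of 24 above 0, and over ranks 26 to 100 it was -0.03, with 32 of 74 above 0. At MED edgeR called 0 members and DESeq2 1, higher, where edgeR called 0% of all identifiers higher and 0.0068% lower. At an unadjusted p below 0.05, 8 members were higher at MED, 8.16% against 3.1%, and 3 lower, 3.06% against 4.09%.

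**Figure D4:**
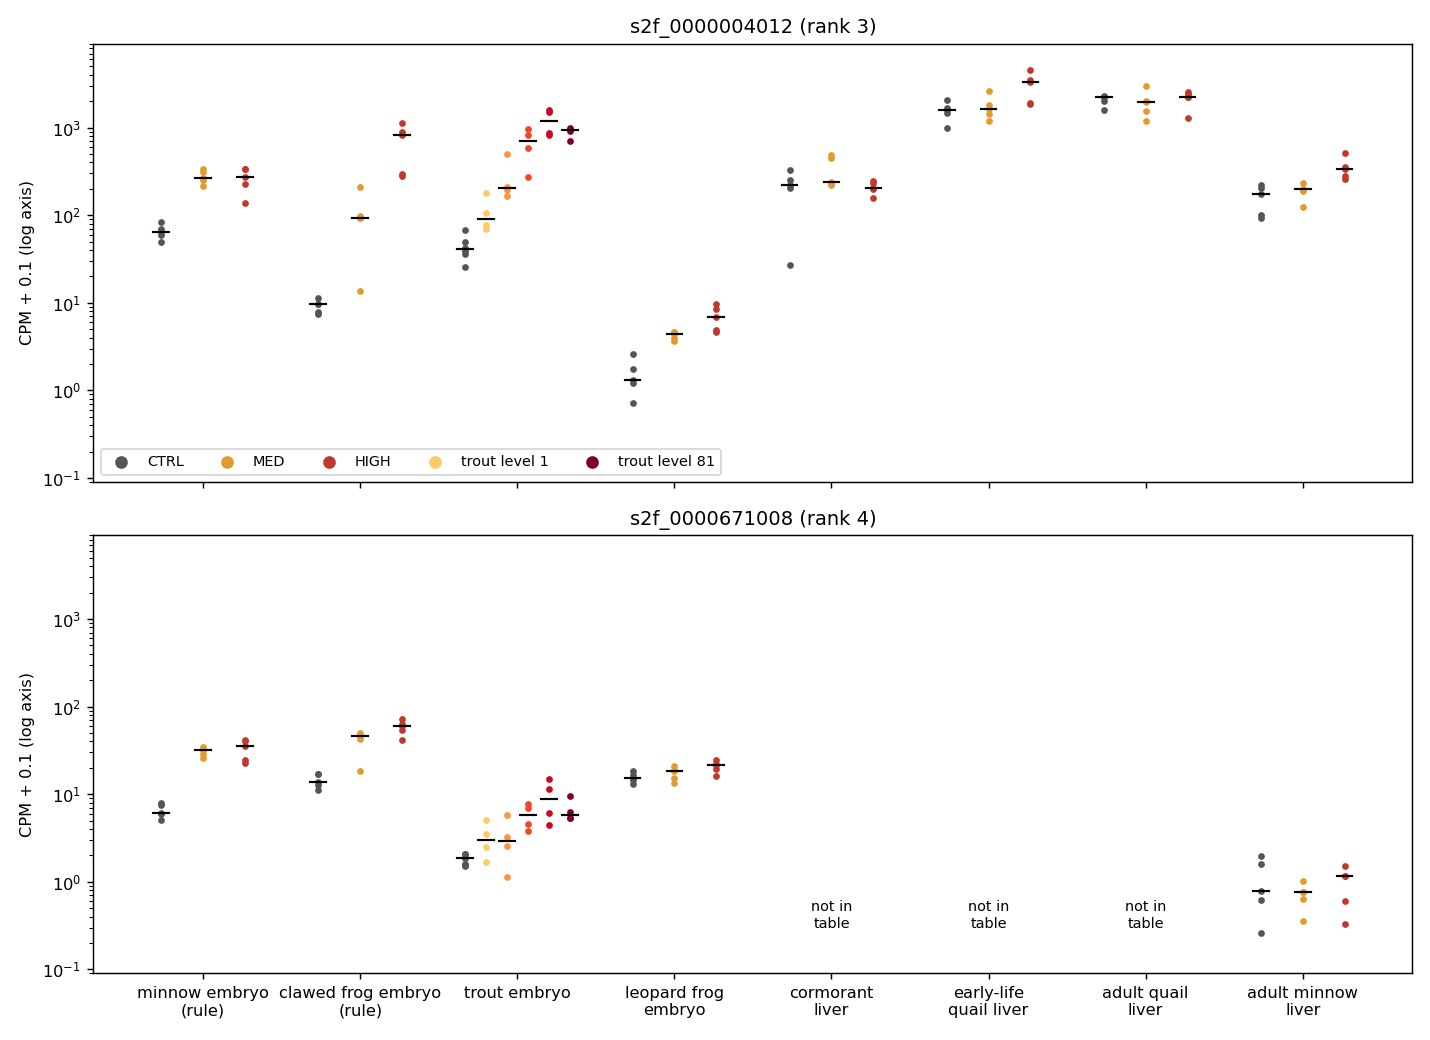
CPM + 0.1 (log axis) in every library of the 8 benzo[a]pyrene tables with controls for the 2 identifiers printed as higher; grey is CTRL, orange MED, red HIGH, yellow to dark red the trout levels 1 to 81, and black bars are medians (plain CPM in the minnow and clawed frog embryo tables of the selection, TMM-scaled CPM elsewhere). s2f_0000004012 stands apart from its controls in the 4 embryo tables and in adult minnow liver at HIGH. s2f_0000671008 does so in minnow, clawed frog and trout embryos at the higher levels. The latter, rank 4, was in none of the bird tables drawn here.

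In the liver tables no member was called at HIGH benzo[a]pyrene, by edgeR or by DESeq2, and few of the other identifiers were. In cormorant liver 0 of 91 members tested were called, with 7 higher and 3 lower at an unadjusted p below 0.05; that is 7.69% and 3.3%, against 3.6% and 12.2% of all identifiers, of which 0% were called in either direction. The cormorant median log2 fold change was 0.09 against -0.01 over all identifiers, and 64 of 91 lay above 0. Cormorant control replicate 2 stood at -0.42 in the median over members, where the other controls and the exposed libraries stood at up to 0.22, and without it the median log2 fold change was 0.045. No member had every HIGH library above every control, against 0.56%. In early-life quail liver 0 of 89 were called, with 7 higher and 5 lower at an unadjusted p below 0.05, 7.87% and 5.62% against 6.45% and 4.24%; 0.0155% of all identifiers were called higher and 0.00775% lower, and none of the members had every HIGH library above every control, against 1.31%. The early-life quail median log2 fold change was -0.02, with 41 of 89 above 0, against 0.02 over all identifiers.

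In adult quail liver 0 of 87 were called, with 7 higher and 2 lower at an unadjusted p below 0.05, 8.05% and 2.3% against 3.29% and 3.63%; 0% of all identifiers were called in either direction, and 1 member had every HIGH library above every control, against 0.538%. Its median log2 fold change was -0.03, with 41 of 87 members above 0, against 0.00 over all identifiers. In adult minnow liver 0 of 95 were called, with 2 higher and 3 lower at an unadjusted p below 0.05, 2.11% and 3.16% against 1.65% and 1.64%; 0% of all identifiers were called in either direction, and 1 member was separated, against 0.188%. The adult minnow median was -0.07, with 34 of 95 above 0, against -0.00. At MED no member was called in these 4 liver tables by edgeR or DESeq2. Over all identifiers edgeR called 0.031% higher and 0.0155% lower in early-life quail liver, and 0% in either direction in cormorant, adult quail and adult minnow liver.

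The unadjusted counts at MED leaned lower in adult minnow liver. There 1 member was higher and 10 were lower at an unadjusted p below 0.05, 1.05% and 10.5% against 2.58% and 2.81% of all identifiers, and the median log2 fold change was -0.17, with 26 of 95 above 0, against 0.00. In cormorant liver 1 was higher and 0 lower at MED, against 2.09% and 10.7%, with a median of 0.10 and 66 of 91 above 0, against -0.01. In early-life quail liver 0 were higher and 1 lower, against 2.46% and 2.91%, with a median of 0.08 and 63 of 89 above 0, against -0.00. In adult quail liver 2 were higher and 2 lower, against 2.16% and 2.45%, with a median of -0.05 and 36 of 87 above 0, against 0.00.

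The separated member of adult minnow liver was s2f_0000004012. It held 92.9, 99.8, 175, 202 and 218.2 CPM in controls, 123 to 231.3 CPM at MED and 262, 279, 336, 352 and 510 CPM at HIGH. Its log2 fold change at HIGH was 1.14 ± 0.26 (SE), which did not pass the test over all identifiers (edgeR adjusted p = 0.999). Rank 2 had a log2 fold change of 2.13 ± 0.59 in the same comparison (edgeR adjusted p = 0.999), from 0.643 to 1.99 CPM in controls to 0.55, 3.11, 5.36, 6.34 and 8.04 CPM at HIGH, which overlap.

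In quail liver s2f_0000004012 was abundant. In early-life quail it held 991 to 2087 CPM in controls and 1851 to 4523 CPM at HIGH, which overlap, with a log2 fold change of 0.95 and an edgeR adjusted p of 0.256. In adult quail it held 1580 to 2280 CPM in controls and 1270 to 2543 CPM at HIGH, and in cormorant 26.8 to 324 CPM in controls and 158 to 243 CPM at HIGH; both ranges overlap. The cormorant log2 fold change was 0.02 ± 0.44 (SE). The 26.8 CPM is control replicate 2, and the other cormorant controls held 202 to 324 CPM. Leaving out 1 library at a time gave log2 fold changes of -0.256 to 0.251. Whether the change of this identifier differs between embryos and liver was not tested, since each table was fitted alone.

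Adult quail liver with lead is the lead comparison that the selection did not read. Of 88 members tested, 0 were higher and 0 lower (edgeR, adjusted p below 0.05), against 0.00853% and 0.0171% of all identifiers; DESeq2 called 0 higher and 1 lower. At an unadjusted p below 0.05, 9 were higher, 10.2% against 4.68% of all identifiers, and 2 were lower, 2.27% against 8.85%. For 1 member every HIGH library lay above every control, against 1.06%. The median log2 fold change was 0.12, with 65 of 88 above 0, against -0.01 over all identifiers, and the medians per library were 0.04 to 0.28 at HIGH and -0.17 to 0.08 in controls, which overlap. Rank 1 moved the other way, from 0.371 to 2.95 CPM in controls to 0.0713 to 0.369 CPM at HIGH, a log2 fold change of -2.55 ± 0.67 (SE) with an edgeR adjusted p of 0.25. The 10 libraries labelled as early-life quail lead held the same counts as adult ones and were left out. The labels therefore do not settle the stage of the libraries that hold these counts, and the adult label was used.

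With the other chemicals few members were called. Of the 28 tables with controls (446 libraries), 25 had no member called at the highest level by edgeR, and the 3 others had 6 calls, 4 higher and 2 lower. DESeq2 gave 21 calls, 14 higher and 7 lower. No DESeq2 share over all identifiers is given, so the 21 cannot be set against a background. At an unadjusted p below 0.05, 105 of 2706 member tests passed as higher and 118 as lower, which is 8.24% together, against 8.12% over all identifiers of these tables. The medians of the members ran from -0.14 to 0.19 over the tables and those of all identifiers from -0.02 to 0.08. Among all identifiers, 17 of the 28 tables had no call at all, 0%.

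All 6 calls lay in rainbow trout and clawed frog embryos. With ethinylestradiol, a synthetic oestrogen, 1.38% of identifiers were called in trout embryos in either direction, and 2 members. s2f_0003506004, rank 34, fell from 166, 239 and 247 CPM in controls to 84.0, 86.6 and 106 CPM at HIGH, a log2 fold change of -1.24 ± 0.16 (SE) with an edgeR adjusted p of 5.775e-04. Rank 63 rose from 31.8 to 38.3 CPM to 44.4 to 57.9 CPM, a log2 fold change of 0.57. With selenomethionine, an organic form of selenium, 0.878% were called in trout embryos, and 3 members. s2f_0002762001, rank 10, fell from 36.1, 38.7, 41.8, 42.6 and 45.6 CPM in controls to 24.5, 24.8, 25.3 and 25.7 CPM at HIGH, a log2 fold change of -0.71 ± 0.07 (SE) with an edgeR adjusted p of 1.045e-06. Its LOW and MED libraries held 34.7 to 42.9 CPM, between the HIGH libraries and the highest control. Ranks 26 and 44 rose by 0.25 and 0.32 on the log2 scale, and without HIGH replicate B 1 of the 3 calls was left. The call of rank 26 was lost on leaving out any 1 of controls A, B, C and D or any 1 HIGH replicate. With the 2 groups alone rank 10 was the only call.

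With benzo[a]pyrene, in the embryos of the selection, rank 10 was higher by the rule itself. It held 42.2 to 48.0 CPM in minnow controls and 111 to 193 CPM at HIGH. The clawed frog values were 9.05 to 12.0 CPM in controls and 36.7 to 53.3 CPM at HIGH. In trout embryos with benzo[a]pyrene rank 10 was not called. Its log2 fold change there was 0.21 ± 0.12 (SE) at level 81 and 0.31 ± 0.12 at level 27. The edgeR adjusted p was 0.937 and 0.406. In clawed frog embryos hexabromocyclododecane, a brominated flame retardant, raised rank 9 from 0.754 to 1.88 CPM to 2.43 to 3.47 CPM, a log2 fold change of 1.03 with an edgeR adjusted p of 0.0489, where 0.78% of identifiers were called. That call was absent with no low-count filter and with the 2 groups alone.

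The other tables with calls over all identifiers held none among the members. Their shares of identifiers called in either direction were 0.0231% in cormorant liver with chlorpyrifos, 0.178% in adult minnow liver, 0.0894% in minnow embryos, 0.0587% in adult quail liver and 0.962% in early-life quail liver with ethinylestradiol, 0.139% with hexabromocyclododecane and 0.672% with selenomethionine in minnow embryos, and 0.0951% with selenomethionine in clawed frog embryos. In cormorant liver with chlorpyrifos, an organophosphate insecticide, s2f_0000004012 had a log2 fold change of 2.14 ± 0.46 (SE), with 5 of 5 HIGH libraries above every control and an edgeR adjusted p of 0.194. In adult quail liver with ethinylestradiol it was -1.44 ± 0.37, with an edgeR adjusted p of 0.177 and overlapping ranges. The changes of this identifier with the other chemicals thus went in both directions, and edgeR called none of them. In the 9 tables described without controls, HIGH could be set against MED alone, and the median L of the members was -0.19 to 0.30 where that of all identifiers was -0.10 to 0.21.

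**Figure D5:**
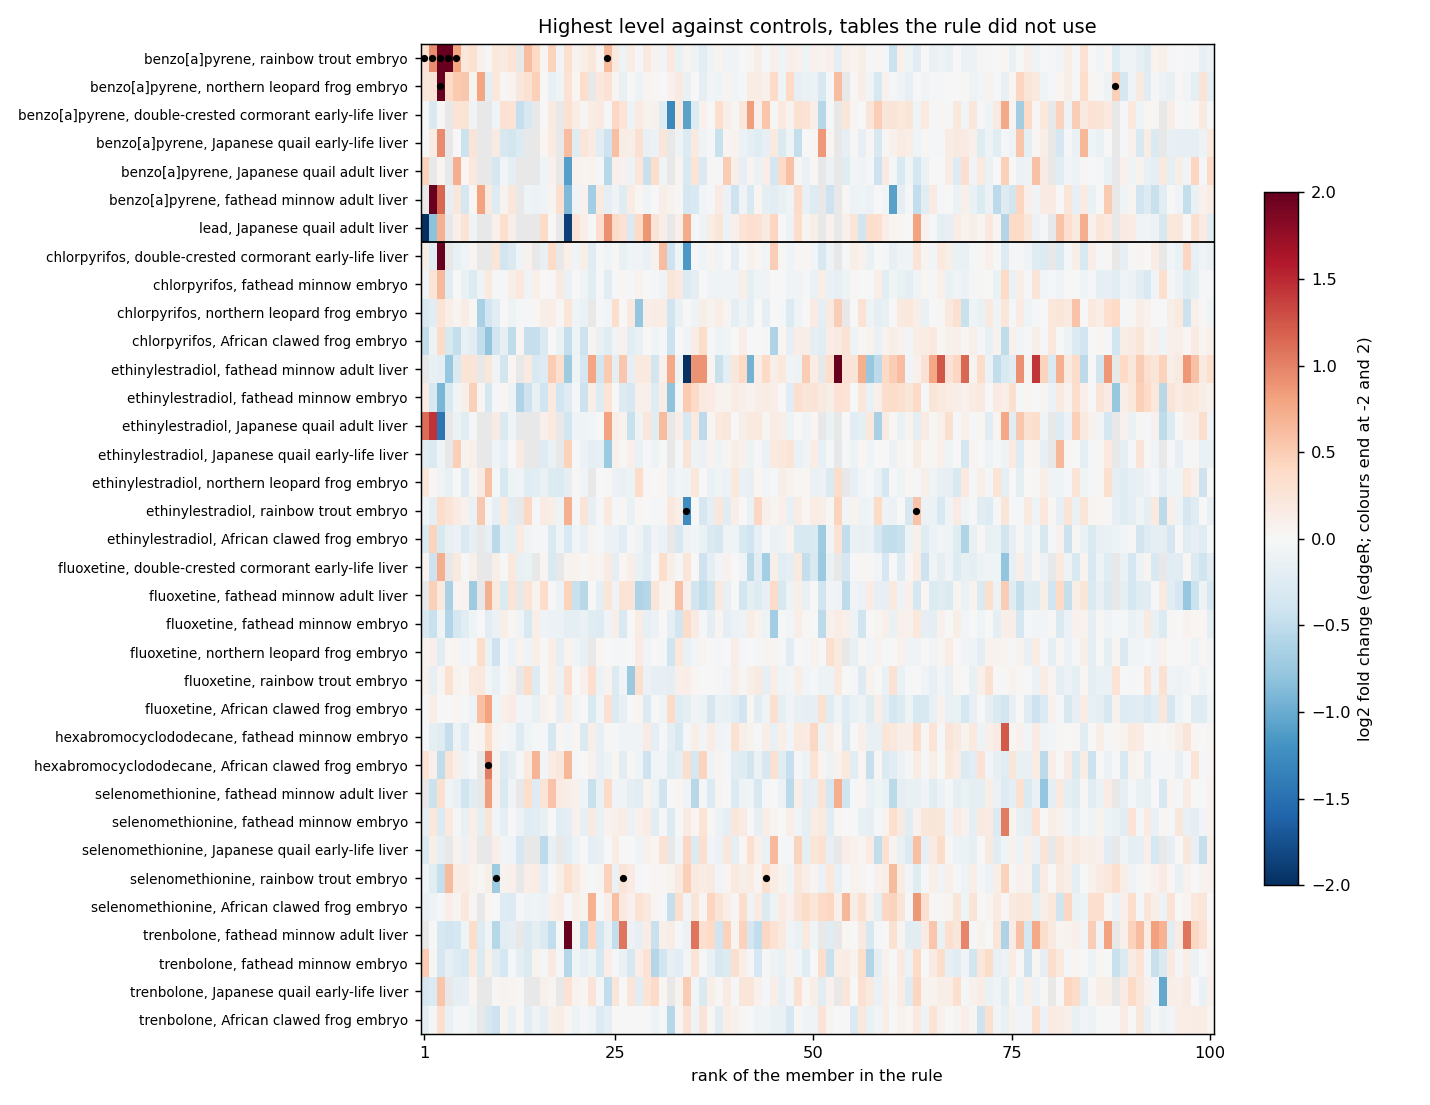
Log2 fold change at the highest level against controls (edgeR; colours end at -2 and 2) of each member, in order of rank on the x axis, for the 35 tables the selection did not use on the y axis; grey cells are members not tested, black dots are calls at an adjusted p below 0.05, and the black line closes the 7 benzo[a]pyrene and quail lead tables. The dots of the benzo[a]pyrene tables lie at ranks 1, 2, 3, 4, 5, 24 and 88, and the others are 6 single dots in 3 tables.

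Among the identifiers themselves some share the digits before the last 3. Ranks 4, 14 and 24 share 1 such stem, and so do ranks 2 and 3, ranks 5 and 84 and ranks 43 and 77, which makes 9 of the 100. Of the 8149 eligible identifiers 4464 shared a stem with another eligible one. A larger set offers each identifier more partners, so this count cannot be set against the 9. No share for lists of 100 was computed, and nothing is read from the 9. Of the 8 members called in trout at level 27 or 81, 6 (ranks 2, 3, 4, 5, 14 and 24) are among the 9. What the stems stand for is not stated in the labels or files, and if identifiers of 1 stem were close copies, reads could have been split between them.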

How the data were processed

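The values used are whole-number read counts, which the authors deposited in a separate file for each chemical, species and stage; paired-end libraries were made from total RNA, per the labels' protocols. How reads were assigned to s2f identifiers is not given in the sources used here. Libraries were placed in groups by the labels, and 52 columns of counts that matched no sample were not used.

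CPM was 1e+06 times a count over the column total, and 1 was added before logarithms. Tables outside the selection were fitted 1 at a time over all identifiers and all level groups in R 4.3.3 with edgeR 4.0.16 (limma 3.58.1): filterByExpr with a minimum count of 10 and a minimum total of 15, TMM scaling, the quasi-likelihood test and Benjamini-Hochberg adjustment at 0.05. The scripts were tested on simulated data. Alternatives were DESeq2 1.42.0, RLE size factors, no filter, 2 groups alone, each replicate left out, a replicate block, and for the rule other pseudocounts, limits and scalings. Shares of all identifiers called are those of the edgeR fit described above. Member counts under an alternative have no share of their own beside them. All p-values are two-sided. An SE is the absolute log2 fold change divided by the square root of the F statistic of the quasi-likelihood test. Depth limits the low identifiers most.

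The labels give the groups of a table the same replicate numbers in 35 tables. In 3 of them (minnow embryos with chlorpyrifos, ethinylestradiol and fluoxetine) every pair's deviations correlated above 0.1, so the numbers may pair the libraries. The calls and shares given above for these 3 come from fits without a block and so ignore such a pairing. A fit with the block changed no member's call there. The members, lists and tests were chosen with earlier results of these data known. Identifiers printed in full are the 2 called higher at the highest level in the most benzo[a]pyrene tables outside the selection, and the 2 called lower in the most tables. Rank 3 was called higher in 2 such tables and rank 4 in 1, as were ranks 1, 2, 5, 24 and 88. Ties were broken by the mean change over the tables that tested each identifier, and no bird table tested rank 4. Other members are given by rank.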

Additional observations from a re-analysis of the deposited data

Results flagged for a closer look

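In 4 of the 54 groups of 4 to 10 libraries examined, 1 library lay far from the others in the median over members of log2(CPM + 1) minus its control mean; chance alone gives about 1 in 20 groups. Clawed frog embryo MED benzo[a]pyrene replicate 5 stood at 0.19, where the other 4 stood at 0.44 to 0.54. Cormorant liver control replicate 2 stood at -0.42, below the other controls. Adult minnow liver MED benzo[a]pyrene replicate A stood at -0.02, above the others of its group. Adult quail liver MED benzo[a]pyrene replicate 5 stood at -0.2, below the others of its group. The part of handling, depth or exposure in these 4 values was not tested.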

How the results depend on the processing

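Of the 507 repeats of counts and medians, 460 stayed within 1.5 times the reported count or within the spread, and no called value changed sign; of 260 repeats for the identifiers printed in full, 254 kept their side of the threshold. The medians over members lay near 0, and 8 of their 107 repeats fell on the other side of it: the medians ran from -0.016 to 0.074 at trout level 81, -0.004 to 0.042 in leopard frog embryos, -0.055 to 0.039 in early-life quail, -0.044 to 0.031 in adult quail and -0.111 to 0.008 in adult minnow liver. The rule kept 95 and 94 members with 0.5 and 2 added to CPM, 86 with a limit of 1 CPM, 72 with TMM scaling, 99 with the 2 like-numbered controls merged and 79 to 100 without 1 library. Left-out libraries gave 1 to 2 members called in leopard frog embryos, 2 to 6 at trout level 81, 3 to 7 at level 27, 1 to 3 at level 9, 1 to 4 with selenomethionine in trout, and a cormorant median of 0.045 to 0.150. The 4 trout controls with S gave 3 at level 81 and 4 at level 27.

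DESeq2 called 4 members in leopard frog embryos at HIGH and 1 at MED, and 3 at trout level 9. With other chemicals it called 21: among them 1 each in cormorant liver with chlorpyrifos and fluoxetine, adult minnow liver with fluoxetine, adult quail liver with ethinylestradiol and clawed frog embryos with selenomethionine and trenbolone, 2 in adult minnow liver with ethinylestradiol and leopard frog embryos with chlorpyrifos, and 4 in clawed frog embryos with hexabromocyclododecane. RLE size factors gave 1 in leopard frog embryos. With no low-count filter 3 were called at trout level 9, 5 in trout with ethinylestradiol, 1 with fluoxetine, and 0 in clawed frog embryos with hexabromocyclododecane. With 2 groups alone the counts were 2 at trout level 9, 1 in minnow and in trout embryos with selenomethionine and 0 in clawed frog embryos with hexabromocyclododecane. The replicate block, where numbers are shared without a stated pairing, gave 1 in leopard frog embryos, 2 at trout level 9, 4 in trout with ethinylestradiol, 3 in minnow and 4 in clawed frog embryos with selenomethionine, 8 with hexabromocyclododecane, and 22 over the other chemicals. The block changed no other call count by over 1.5 times. At trout level 81 the log2 fold change of s2f_0000671008 was 1.72 without replicate D and no longer passed. Shares over all identifiers are not given for these alternatives, so their counts of members have no background of the same method. The cause of these shifts was not tested.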
